A study of Homo sapiens with 9 samples.

Results

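The 45 genes described here encode proteins of the extracellular matrix: collagens, laminins and their basement membrane partners, fibronectin and the microfibril glycoproteins, proteoglycans, matricellular proteins, and the enzymes and inhibitors that cross-link or cut them. They come from a list of symbols that was chosen with earlier results of these data known. Matched to Ensembl identifiers, all 45 were found among the 60671 genes of the deposited tables. The tables hold RNA-seq read counts for H295R, a steroid-producing line from a human adrenocortical carcinoma, in 3 groups of 3 libraries. KO cells carry a knockout of SGPL1, OE cells were made to overexpress SGPL1, and WT cells are H295R without either change. SGPL1 encodes sphingosine-1-phosphate lyase, the enzyme that breaks down sphingosine-1-phosphate irreversibly. No group was treated with an agent, and all 9 libraries came from poly-A RNA of untreated cultures in the same growth medium. The labels used here do not state the kind of edit, the vector or promoter of the OE cells, or whether each modified line is 1 clone, so line and genotype cannot be told apart.

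The extracellular matrix takes a pair of main forms. The basement membrane is a sheet in which laminin trimers and type IV collagen form networks that nidogens and the heparan sulfate proteoglycans perlecan and agrin join. The interstitial matrix is built on fibrillar collagens, fibronectin and fibrillin microfibrils, with hyaluronan-binding proteoglycans such as versican between them. Matrix metalloproteinases cut these proteins, tissue inhibitors of metalloproteinases (TIMPs) block the metalloproteinases, and serpins block serine proteases. In the adrenal cortex, laminins and type IV collagen lie around the cords of steroidogenic cells.

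Read totals were 8553964 to 9351139 in KO, 8020836 to 10895080 in OE and 8006873 to 8549071 in WT. Levels are given as CPM, each count divided by its library's scaled size. SGPL1 itself had 47.2, 43.9 and 53.8 CPM in the KO libraries, 98.1, 81.3 and 101 CPM in the OE libraries and 101.5, 83.4 and 98.1 CPM in the WT libraries. It was lower in KO than in WT, with a log2 fold change of -0.97 ± 0.14 (SE, adjusted p = 0.000105), and reads on it remained. The libraries labelled OE did not differ detectably from WT in SGPL1 (-0.01 ± 0.14, adjusted p = 0.966), so the counts on this gene do not show the labelled overexpression. Fold changes come from edgeR's quasi-likelihood F test on all 9 libraries, with Benjamini-Hochberg adjustment across the 14150 genes left by a filter on low counts. A gene is called here where its adjusted p is under 0.05. All 10 adrenocortical marker genes, among them NR5A1, STAR and CYP11A1, were measured. They summed to 3876 to 4520 CPM in KO, 4081 to 4876 CPM in OE and 2810 to 3181 CPM in WT. Of these sums, SCARB1 alone held 1683 to 1929 CPM in KO, 1770 to 2178 CPM in OE and 990 to 1216 CPM in WT. Against WT, 5 of the 10 were called higher in KO and 5 in OE, where 9.16% and 9.65% of all tested genes were higher. With a correction for gene length, described below, 6 were higher in KO and 3 in OE, against 10.9% and 10.3% of all genes. Of 10 fibroblast markers, 5 passed the filter, and the list summed to 231 to 261 CPM in KO, 127 to 148 CPM in OE and 160 to 204 CPM in WT. DDR2, TWIST1 and FAP made up most of this sum, while TCF21 had no read in any library, and PDGFRA and THY1 were below 1 CPM in each. DDR2, itself a collagen receptor, was called higher in KO than in WT (0.68, adjusted p = 0.00292) and lower in OE than in WT (-0.52, adjusted p = 0.0190), the last not with a correction for gene length (adjusted p = 0.157). None of 8 endothelial and 6 leukocyte markers passed the filter, with at most 15 and 13 counts, and TEK, ERG, PTPRC, CD3E and CD68 had none. Of 6 epithelial markers, 2 passed the filter, and EPCAM was lower in KO than in WT (-1.08, adjusted p = 0.000192). The part that these lists play in the matrix results was not tested. In such bulk libraries, fewer cells that express a gene and less RNA in each cell cannot be told apart.

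Promoter sequences are shown for the genes on which the comparisons turn, from RefSeq on the GRCh38.p14 build. Each stretch comes from the 250 bases before a gene's first listed start, without bases that the count tables list as exon, and is written 5′ to 3′ on the gene's strand. Capitals mark GC boxes (GGGCGG) and CCAAT boxes (CCAAT) found on either strand. FN1, VCAN and MMP14 are shown since they were lower than WT in both modified lines, HSPG2 since it had the largest fold change between KO and OE, and SERPINE2 since it was lower in KO and higher in OE. FN1 (chr2:215436074-215436318, minus strand), VCAN (chr5:83471494-83471617, plus strand), MMP14 (chr14:22836335-22836559, plus strand), HSPG2 (chr1:21937311-21937560, minus strand) and SERPINE2 (chr2:224031479-224031728, minus strand, 1 of 2 starts listed and inside the gene's span in the files) read as follows.
FN1: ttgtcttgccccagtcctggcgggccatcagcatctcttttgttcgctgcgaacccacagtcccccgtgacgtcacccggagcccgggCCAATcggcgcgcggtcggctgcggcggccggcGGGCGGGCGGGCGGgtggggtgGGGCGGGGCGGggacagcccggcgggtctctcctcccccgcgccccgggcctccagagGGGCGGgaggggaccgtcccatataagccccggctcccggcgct
VCAN: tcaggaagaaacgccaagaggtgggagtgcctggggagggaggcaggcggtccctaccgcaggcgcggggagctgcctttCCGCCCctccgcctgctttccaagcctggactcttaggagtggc
MMP14: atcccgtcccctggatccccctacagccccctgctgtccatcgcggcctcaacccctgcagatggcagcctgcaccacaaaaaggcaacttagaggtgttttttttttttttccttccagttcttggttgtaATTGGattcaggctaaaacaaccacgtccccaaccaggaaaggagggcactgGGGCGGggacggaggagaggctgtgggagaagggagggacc
HSPG2: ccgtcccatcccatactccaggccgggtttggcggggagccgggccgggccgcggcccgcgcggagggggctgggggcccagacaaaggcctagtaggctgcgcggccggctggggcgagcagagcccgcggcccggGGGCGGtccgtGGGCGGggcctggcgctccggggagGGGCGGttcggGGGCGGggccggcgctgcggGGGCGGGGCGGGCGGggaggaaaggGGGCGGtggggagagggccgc
SERPINE2: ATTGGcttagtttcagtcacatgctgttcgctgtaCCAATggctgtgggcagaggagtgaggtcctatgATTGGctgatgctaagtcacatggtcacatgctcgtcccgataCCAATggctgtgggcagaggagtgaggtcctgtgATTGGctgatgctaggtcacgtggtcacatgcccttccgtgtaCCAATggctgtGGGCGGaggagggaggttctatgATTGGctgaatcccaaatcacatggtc

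The stretches shown for FN1, VCAN and MMP14 hold 245, 124 and 225 bases, so their motif counts do not rest on equal lengths. The FN1 stretch holds 6 GC boxes, some of them overlapping, and 1 CCAAT box, the VCAN stretch holds 1 GC box and no CCAAT box, and the MMP14 stretch holds 1 of each. The HSPG2 stretch holds 8 GC boxes. The SERPINE2 stretch holds 1 GC box and 7 CCAAT boxes, which lie in repeated stretches of similar sequence. A full RefSeq window of 250 bases was found for 34 of the 45 genes. A GC box was present in 27 of these 34 windows (79.4%), against 42.3% of all 27305 windows, and a CCAAT box in 15 (44.1%), against 33% of all windows. The 27305 windows are 1 per gene symbol and outnumber the 14150 genes tested here, so they include genes that were not tested. The shares among tested genes alone were not taken. These are matches of letters and say nothing of which factor binds there.

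Of the 45 genes, 35 passed the low-count filter and 10 did not. A gene that is high in 1 group alone can pass this filter, so counts over the 35 do not describe all 45. The 10 were COL1A2, COL5A1, COL12A1, COL4A5, COL4A6, LAMA1, BGN, DCN, LUM and THBS1, and none of them reached more than 14 counts in a library. LUM, which encodes the small proteoglycan lumican, had no count in any library. Levels of different genes are compared as RPKM, the CPM divided by the deposited Length column in kilobases (the merged exons of a gene). On this scale SPARC, a collagen-binding matricellular protein, was the most abundant of the 45, at an RPKM of 659.7 ± 8.57 in KO, 503 ± 12.2 in OE and 637 ± 54.8 in WT (mean ± SD, n = 3 each). TIMP3 followed at 249.98 ± 8.72 in KO, 235 ± 8.96 in OE and 210.2 ± 22.8 in WT. In WT, TIMP1, LTBP1 and LAMB1 came next, and their order does not hold against their spread. Their WT means were 66.7 ± 10.5, 66.7 ± 11.5 and 50.9 ± 9.44 RPKM.

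**Figure D1:**
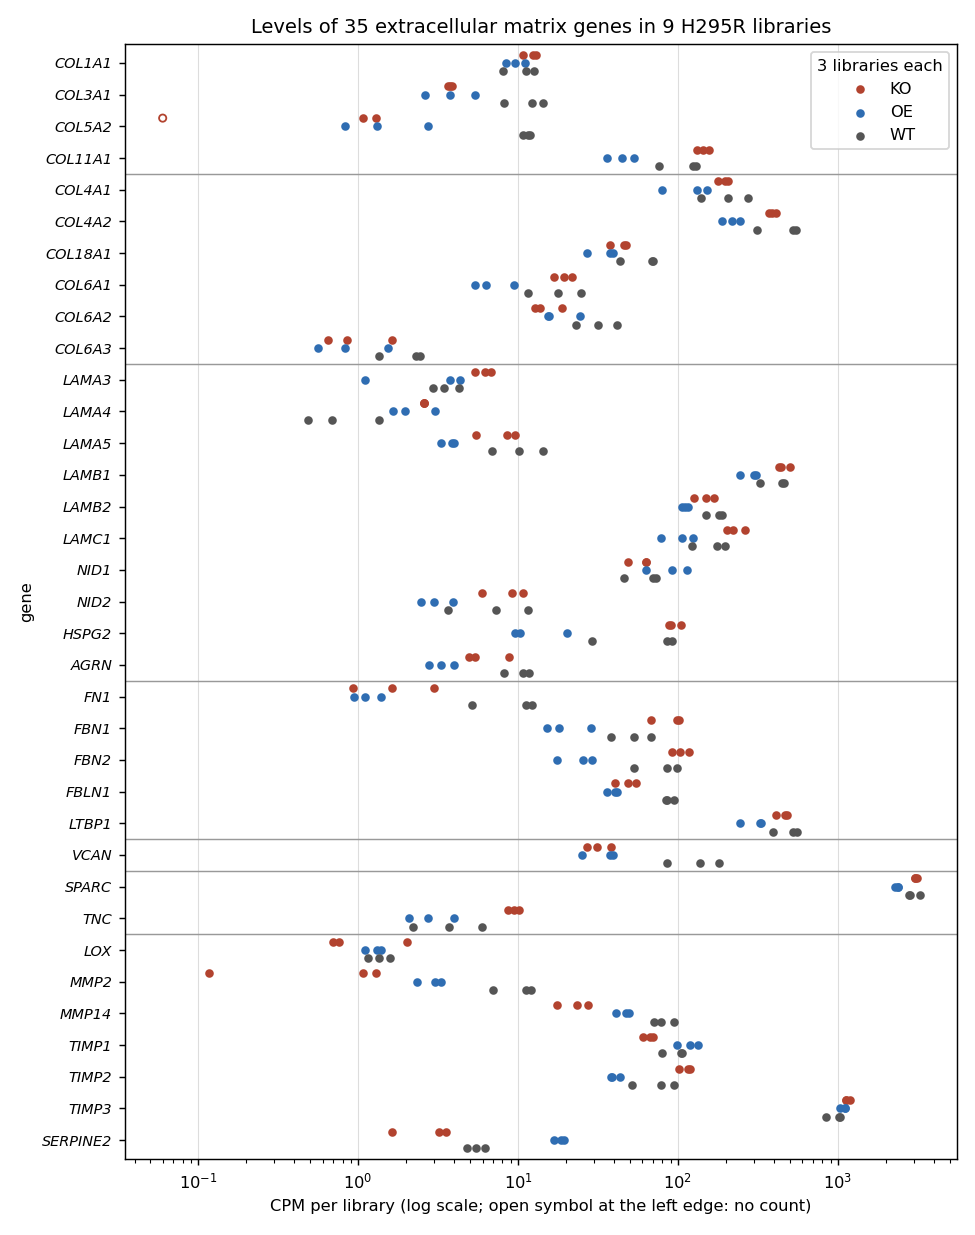
CPM of the 35 tested matrix genes in each of the 9 libraries (points, log scale), with KO above OE above WT in each row and lines between the classes of genes; an open symbol at the left edge marks a library with no count. The KO and OE points of COL5A2, FN1, VCAN, MMP2 and MMP14 all lie left of the WT points, and the OE points of SERPINE2 lie right of both others.

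In KO against WT, 4 of the 35 tested genes were higher and 10 were lower, set against 9.16% higher and 9.6% lower among all tested genes (18.8% in either direction). The 4 that rose were LAMA4, TNC, FBN1 and TIMP2. The 10 that fell were COL3A1, COL5A2, COL6A2, FN1, FBLN1, VCAN, MMP2, MMP14, TIMP1 and SERPINE2. The median log2 fold change was -0.12 over the 35 genes and -0.01 over all tested genes. The KO and WT libraries did not overlap for 18 of the 35 genes, against 35.2% of all tested genes. With library totals in place of TMM scaling, 2 genes were higher and 10 lower, since FBN1 and TIMP2 were no longer called. Over all genes, library totals gave 1025 higher and 1604 lower, against 1296 and 1359 with TMM. The number of matrix genes higher was 1 without KO replicate 2, KO replicate 3 or WT replicate 2, and 2 without WT replicate 1. Over all genes, 879, 883, 1016 and 881 were higher in these fits, in the order named, so that number fell too.

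In OE against WT, 1 gene, SERPINE2, was higher and 25 were lower, set against 9.65% higher and 11% lower among all tested genes (20.7% in either direction). The median was -0.83 over the 35 genes, 30 of which had a negative value, and -0.01 over all tested genes. The OE and WT libraries did not overlap for 23 of the 35, against 36.4% of all tested genes. Genes of every class fell: 3 of 4 fibrillar collagens, 5 of 6 other collagens, 7 of 10 laminins and partners, all 5 of the fibronectin and microfibril group, VCAN, SPARC, and 3 of 7 among LOX, the proteases and the inhibitors. Library totals alone shifted the median of all genes in this comparison to -0.13 and gave 765 genes higher and 2190 lower, against 1365 and 1559 with TMM, and the 26 calls on matrix genes were kept.

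In KO against OE, 18 genes were higher and 5 lower, set against 20.6% higher and 19% lower among all tested genes (39.7% in either direction). The median was 0.42 over the 35 genes and 0.00 over all tested genes, and the libraries did not overlap for 24 of the 35, against 51.7% of all tested genes. The 5 lower in KO were NID1, MMP2, MMP14, TIMP1 and SERPINE2. The KO and WT comparisons share their libraries with the OE ones, so the 3 sets of values are given side by side and not as separate evidence. In the 2 comparisons with WT, 8 genes were lower in both: COL3A1, COL5A2, COL6A2, FN1, FBLN1, VCAN, MMP2 and MMP14. FBN1 and TIMP2 were higher in KO and lower in OE, and SERPINE2 was lower in KO and higher in OE. Another 15 were lower in OE alone, and the KO difference of each of these did not reach the threshold, although COL18A1, LAMC1 and AGRN were called in KO too with the correction for gene length given below. COL1A1, COL6A3, LAMA3, NID1, LOX and TIMP3 were called in neither. The shares of all tested genes with the same pairs of calls were not taken, so these joint counts have no background here.

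**Figure D2:**
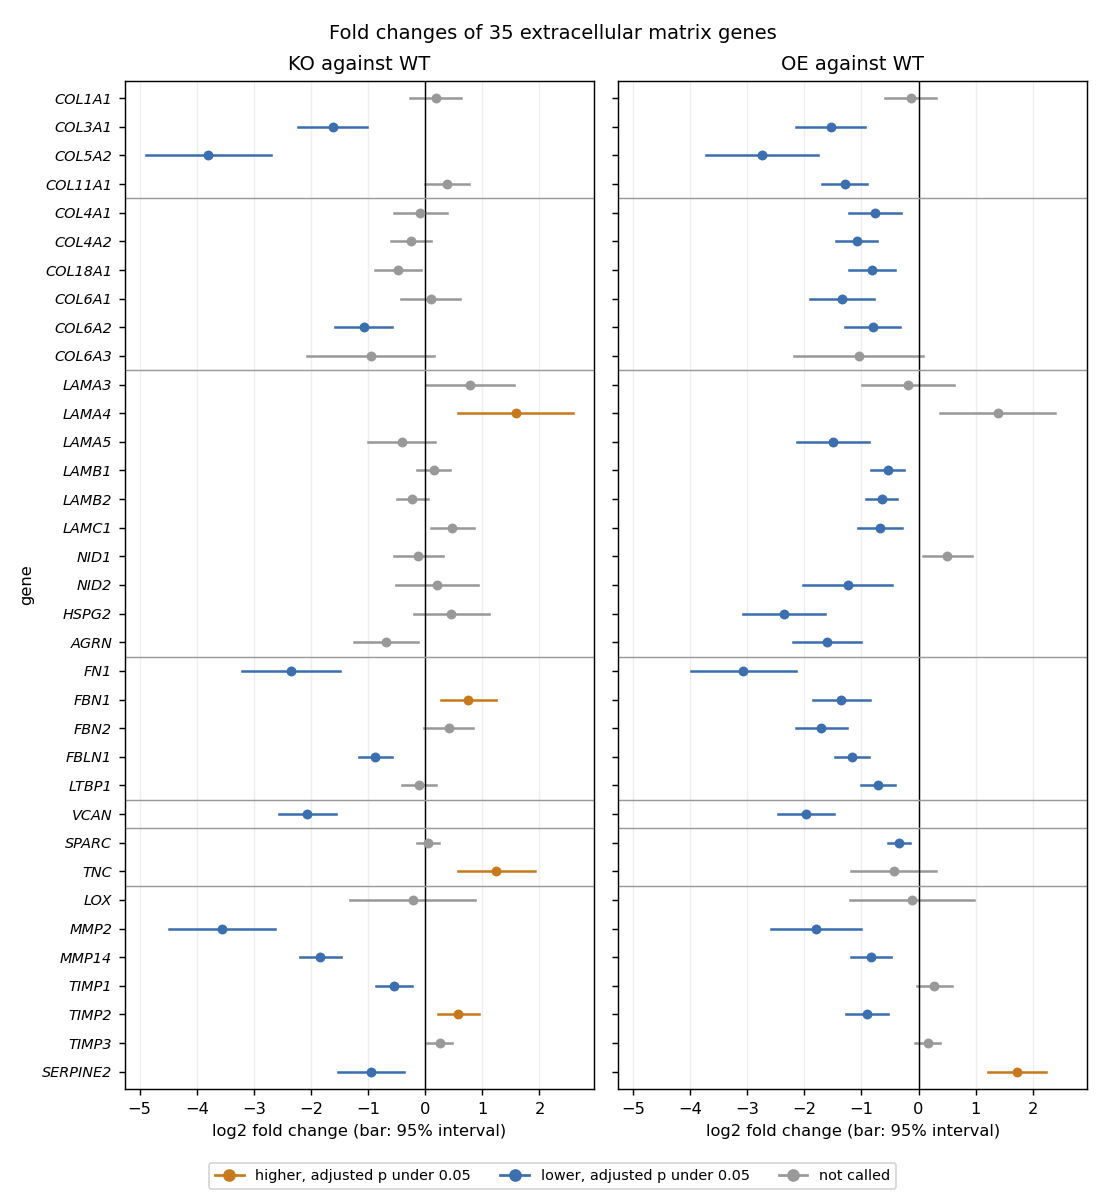
Log2 fold change of each of the 35 matrix genes in KO against WT (left) and OE against WT (right), with bars for the 95% interval and colours for the call at an adjusted p under 0.05. In KO the called genes lie on both sides of 0 (4 higher, 10 lower), and in OE all called genes but SERPINE2 lie below it.

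Among the fibrillar collagens, COL3A1 and COL5A2 fell in both lines and COL11A1 fell in OE. COL3A1 (ENSG00000168542, chromosome 2, 188974373 to 189012746, plus strand, Length 6758 bases), the single chain of type III collagen, had 3.74, 3.67 and 3.85 CPM in the KO libraries, 5.39, 2.63 and 3.76 CPM in the OE libraries and 14.2, 8.19 and 12.2 CPM in the WT libraries. All KO and all OE values lay below the lowest WT value. The log2 fold change was -1.62 ± 0.29 (adjusted p = 0.000699) in KO and -1.54 ± 0.28 (adjusted p = 0.00197) in OE.

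COL5A2 (ENSG00000204262, chromosome 2, 189031898 to 189225312, minus strand, Length 7319 bases), a chain of the type V collagen that helps to start fibrils, had 0, 1.30 and 1.07 CPM in the KO libraries, 1.32, 0.830 and 2.73 CPM in the OE libraries and 10.7, 11.9 and 11.5 CPM in the WT libraries. The 3 WT libraries were close together and the other 6 were all far below them. Its log2 fold change was -3.80 ± 0.52 (adjusted p = 6.27e-05) in KO, the largest fall among the 35 genes in that comparison, and -2.74 ± 0.46 (adjusted p = 0.00113) in OE. COL3A1 and COL5A2 are neighbours on chromosome 2 in opposite orientation. The median of the 51 tested genes around each was 0.16 and 0.16 in KO against WT, and each of the 2 genes is among the neighbours of the other.

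COL11A1 (ENSG00000060718, chromosome 1, 102876467 to 103108872, minus strand, Length 9091 bases), a chain of the minor fibrillar collagen type XI and the most abundant fibrillar collagen here, behaved otherwise. It had 131, 143 and 157 CPM in the KO libraries, 53.3, 36.0 and 44.96 CPM in the OE libraries and 124, 76.3 and 130.1 CPM in the WT libraries. The OE libraries were the lowest 3 of the 9 (-1.29 ± 0.19, adjusted p = 0.000401, against WT, and 1.68 ± 0.19, adjusted p = 5.84e-06, for KO against OE). KO did not pass the threshold against WT (0.38, adjusted p = 0.158), although the 3 KO libraries lay above the 3 WT ones.

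Type I collagen, the main collagen of most connective tissue, is a trimer of products of COL1A1 and COL1A2. COL1A1 averaged 12.1 ± 1.15 CPM in KO, 9.67 ± 1.28 CPM in OE and 10.6 ± 2.31 CPM in WT (SD, n = 3 each) and was called in no comparison. Its partner COL1A2 had 0 or 2 counts in every library. COL5A1, the partner of COL5A2, had at most 7 counts, and COL12A1, a collagen on the surface of fibrils, at most 6. COL1A1 thus had reads in all 9 libraries with few or none on COL1A2.

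Among the type IV collagen genes of the list, COL4A1 and COL4A2 had enough reads to test, and both fell in OE. COL4A2 (ENSG00000134871, chromosome 13, 110305812 to 110513209, plus strand, Length 19271 bases) had 388, 409 and 369 CPM in the KO libraries, 246, 189 and 217 CPM in the OE libraries and 546, 311 and 525 CPM in the WT libraries. The OE values were the lowest 3 of 9, and 1 WT library, replicate 2, lay well under the other 2. The log2 fold change was -1.08 ± 0.17 (adjusted p = 0.000609) in OE and -0.24 in KO (adjusted p = 0.347).

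COL4A1 (ENSG00000187498, chromosome 13, 110148963 to 110307157, minus strand, Length 14662 bases) had 178, 198 and 206 CPM in the KO libraries, 152, 79.7 and 132 CPM in the OE libraries and 206, 139 and 272 CPM in the WT libraries. Its OE and WT libraries overlapped, since OE replicate 1 lay above WT replicate 2. The log2 fold change in OE was -0.76 ± 0.22 (adjusted p = 0.0220), and the call was lost without OE replicate 2, WT replicate 1 or WT replicate 3 (adjusted p up to 0.142, log2 fold change -0.96 to -0.50 over the 9 fits). The KO value of -0.09 did not pass the test (adjusted p = 0.835).

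The 2 genes lie head to head, with RefSeq starts 127 bases apart on chromosome 13, and are known to share the promoter between them. The exon-free part of it is shown for that reason (GRCh38.p14, chr13:110307158-110307257, plus strand) and holds 1 GC box and 1 CCAAT box.
COL4A1 to COL4A2: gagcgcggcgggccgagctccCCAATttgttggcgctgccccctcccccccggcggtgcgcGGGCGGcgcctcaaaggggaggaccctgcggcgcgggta

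The annotated spans of COL4A1 and COL4A2 overlap here, and the counting ignored strand, so the counts of both are uncertain there. COL4A5 and COL4A6 form a second such pair on chromosome X, with starts 380 bases apart. COL4A5 had at most 6 counts, and COL4A6 had 2 counts in WT replicate 3 and none elsewhere. COL4A4, a further type IV chain from the list of other matrix proteins and named after its values were seen, had 12.8, 17.3 and 24.1 CPM in the KO libraries, 9.46, 7.47 and 10.4 CPM in the OE libraries and 22.2, 18.2 and 26.6 CPM in the WT libraries. It fell in OE (-1.28 ± 0.23, adjusted p = 0.00176), and KO did not pass the test (-0.30, adjusted p = 0.387). COL15A1, a collagen of the same list also named after its values were seen, went the other way in OE. It had 280, 306 and 293 CPM in the KO libraries, 623, 458 and 545 CPM in the OE libraries and 392, 293 and 377 CPM in the WT libraries. With a correction for gene length, described below, it was higher in OE than in WT (0.72 ± 0.11, adjusted p = 0.000241).

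COL18A1, COL6A1 and COL6A2 lie together on chromosome 21. COL18A1, a basement membrane collagen that carries heparan sulfate and is the source of endostatin, averaged 43.8 ± 5.23 CPM in KO, 34.6 ± 6.76 CPM in OE and 60.8 ± 15.3 CPM in WT (SD, n = 3 each). It fell in OE (-0.82 ± 0.19, adjusted p = 0.00821), and that call was lost without WT replicate 1 (adjusted p = 0.0531). COL6A1 and COL6A2 encode chains of the beaded-filament collagen type VI.

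COL6A1 had 21.6, 19.3 and 16.7 CPM in the KO libraries, 9.46, 5.39 and 6.30 CPM in the OE libraries and 24.6, 11.5 and 17.7 CPM in the WT libraries, so the OE libraries were the lowest 3 (-1.34 ± 0.27, adjusted p = 0.00297), and KO and WT overlapped (0.09, adjusted p = 0.840). COL6A2 had 13.8, 18.9 and 12.8 CPM in the KO libraries, 15.7, 24.3 and 15.4 CPM in the OE libraries and 41.4, 23.0 and 31.9 CPM in the WT libraries. All KO values of COL6A2 lay below all WT values (-1.08 ± 0.23, adjusted p = 0.00349), while OE replicate 2 exceeded WT replicate 2. The OE difference of COL6A2 was -0.81 ± 0.23 (adjusted p = 0.0219) and was lost without OE replicate 1, OE replicate 3, WT replicate 1 or WT replicate 3 (adjusted p up to 0.139, log2 fold change -1.03 to -0.58 over the 9 fits). The tested genes around the 3 had a median log2 fold change of -0.47 in KO against WT, equal to that of COL18A1 itself (-0.47). COL6A3, whose chain completes the usual trimer, had at most 20 counts in a library and was called in no comparison.

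The laminins showed many reads on the shared β and γ chains and few on the listed α chains. A laminin is a trimer of an α, a β and a γ chain. In RPKM, LAMB1 was at 56.5 ± 4.82 in KO, 35.01 ± 4.16 in OE and 50.9 ± 9.44 in WT, LAMC1 at 27.1 ± 3.63 in KO, 12.2 ± 2.81 in OE and 19.5 ± 4.49 in WT and LAMB2 at 21.6 ± 3.05 in KO, 16.1 ± 0.623 in OE and 25.2 ± 2.99 in WT (mean ± SD, n = 3 each). In contrast LAMA3, LAMA4 and LAMA5 had group means between 0.0705 and 0.731, and LAMA1 had at most 4 counts. LAMA2, an α chain outside the 45 genes that belongs to a further list of matrix proteins, had 124, 169 and 184 CPM in the KO libraries, 50.9, 37.1 and 46.6 CPM in the OE libraries and 161, 103 and 192 CPM in the WT libraries, or mean RPKM of 15.4 in KO, 4.33 in OE and 14.7 in WT.

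In OE, LAMB1, LAMB2 and LAMC1 fell together by moderate amounts. LAMB1 (ENSG00000091136, chromosome 7, 107923799 to 108003187, minus strand, Length 8072 bases) had 428, 439.9 and 500.3 CPM in the KO libraries, 297, 244 and 307 CPM in the OE libraries and 446, 324 and 464 CPM in the WT libraries, and its OE values lay below all others (-0.54 ± 0.14, adjusted p = 0.0121). LAMB2 fell by a similar amount (-0.64 ± 0.13, adjusted p = 0.00334). LAMC1 (ENSG00000135862, chromosome 1, 183023420 to 183145592, plus strand, Length 8446 bases) had 202, 221 and 262 CPM in the KO libraries, 125, 78.0 and 107 CPM in the OE libraries and 174, 123 and 197 CPM in the WT libraries, and its highest OE value passed its lowest WT value (-0.68 ± 0.18, adjusted p = 0.0153). The LAMB1 call was lost without WT replicate 1 or WT replicate 3 (adjusted p up to 0.0679, log2 fold change -0.67 to -0.43 over the 9 fits), and the LAMC1 call without OE replicate 2, WT replicate 1 or WT replicate 3 (adjusted p up to 0.0861, log2 fold change -0.83 to -0.49 over the 9 fits). LAMA2 fell further (-1.76 ± 0.20, adjusted p = 9.51e-05), as did LAMA5 (-1.50 ± 0.30, adjusted p = 0.00319), the α chain of many mature basement membranes. LAMA5 had 8.53, 9.62 and 5.45 CPM in the KO libraries and 3.96, 3.87 and 3.29 CPM in the OE libraries. Its WT libraries had 14.4, 6.85 and 10.1 CPM.

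LAMA5, LAMB1 and NID2 each overlap a counted gene on the opposite strand (ADRM1, DLD and RTRAF), as COL18A1 does SLC19A1 and LOX does SRFBP1, and because strand was ignored their counts are uncertain where the genes overlap.

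In KO none of LAMB1, LAMB2, LAMC1 and LAMA5 was called. LAMC1 was highest in KO but missed the threshold (0.47, adjusted p = 0.0765), and the 51 tested genes around it on chromosome 1 had a median of 0.63. It was called higher in KO with the length correction (0.42, adjusted p = 0.0318), with no low-count filter, with the replicate number as a block, when only the groups compared were fitted, and without OE replicate 2 or WT replicate 3. LAMA4 was called higher in KO (1.58 ± 0.47, adjusted p = 0.0272) at a very low level, with 2.57, 2.59 and 2.57 CPM in the KO libraries, 1.98, 1.66 and 3.01 CPM in the OE libraries and 1.36, 0.489 and 0.690 CPM in the WT libraries. That call was lost without KO replicate 1, KO replicate 2, KO replicate 3, WT replicate 2 or WT replicate 3 (adjusted p up to 0.1002, log2 fold change 1.31 to 2.10 over the 9 fits). In OE the LAMA4 value was similar and just missed the threshold (1.39, adjusted p = 0.0501), and LAMA3 was called in KO against OE only (0.96 ± 0.36, adjusted p = 0.0457), a call lost without KO replicate 1, KO replicate 2, KO replicate 3, OE replicate 1, OE replicate 2 or WT replicate 1 (adjusted p up to 0.164, log2 fold change 0.58 to 1.29 over the 9 fits).

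Perlecan and agrin, the proteoglycans of the basement membrane, fell in OE. HSPG2 (ENSG00000142798, chromosome 1, 21822244 to 21937310, minus strand, Length 18118 bases), the perlecan gene whose promoter window is shown above, had 91.1, 104 and 87.7 CPM in the KO libraries, 20.3, 9.54 and 10.3 CPM in the OE libraries and 85.0, 28.9 and 92.1 CPM in the WT libraries. The OE libraries were the lowest 3 and WT replicate 2 lay well below the other WT libraries. Its log2 fold change was -2.35 ± 0.34 (adjusted p = 0.000416) in OE, 2.81 ± 0.34 (adjusted p = 1.41e-05) for KO against OE, and 0.46 in KO against WT (adjusted p = 0.346). AGRN had 8.76, 4.97 and 5.35 CPM in the KO libraries, 3.96, 2.77 and 3.29 CPM in the OE libraries and 11.8, 8.19 and 10.7 CPM in the WT libraries. It fell in OE (-1.60 ± 0.28, adjusted p = 0.00145), and its KO value did not pass the test (-0.69, adjusted p = 0.0817). AGRN was called lower in KO with the length correction, with the replicate number as a block and without KO replicate 1. The same held with both WT replicate 2 and OE replicate 2 left out.

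The nidogens, which link laminin to collagen IV, differed from each other. NID1 averaged 58.2 ± 8.19 CPM in KO, 89.5 ± 25.2 CPM in OE and 63.2 ± 14.6 CPM in WT (SD, n = 3 each), and was lower in KO than in OE (-0.62 ± 0.20, adjusted p = 0.0213), a call lost without KO replicate 1, OE replicate 1 or OE replicate 3 (adjusted p up to 0.128, log2 fold change -0.84 to -0.41 over the 9 fits). NID2 had 5.96, 10.8 and 9.198 CPM in the KO libraries, 2.97, 2.49 and 3.95 CPM in the OE libraries and 7.24, 3.67 and 11.6 CPM in the WT libraries. The NID2 fall in OE (-1.24 ± 0.37, adjusted p = 0.0262) was lost without OE replicate 1, OE replicate 2, WT replicate 1 or WT replicate 3 (adjusted p up to 0.195, log2 fold change -1.55 to -0.78 over the 9 fits), and its OE libraries overlapped the WT ones.

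Fibronectin was low in both modified lines. FN1 (ENSG00000115414, chromosome 2, 215360440 to 215436073, minus strand, Length 17216 bases), which encodes the glycoprotein that binds integrins, collagen and heparin, had 0.934, 1.62 and 2.99 CPM in the KO libraries, 1.10, 1.38 and 0.941 CPM in the OE libraries and 11.2, 5.14 and 12.2 CPM in the WT libraries. Every KO and OE library lay below every WT library. In counts, the KO libraries held 8, 15 and 28 reads and the OE libraries 10 each, so the depth limits how well these low levels are known. The log2 fold change was -2.34 ± 0.41 (adjusted p = 0.000585) in KO and -3.07 ± 0.44 (adjusted p = 0.000381) in OE, and KO against OE did not pass the test (0.72, 95% interval -0.32 to 1.77, adjusted p = 0.260).

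FBLN1 (ENSG00000077942, chromosome 22, 45502238 to 45601135, plus strand, Length 7285 bases), which encodes the fibronectin- and elastic-fibre-associated protein fibulin-1, also fell in both, with 48.5, 54.9 and 40.6 CPM in the KO libraries, 41.4, 36.1 and 40.2 CPM in the OE libraries and 94.9, 84.9 and 83.8 CPM in the WT libraries. The groups did not overlap with WT, and WT replicate 2 was not low for this gene. Its log2 fold change was -0.87 ± 0.14 (adjusted p = 0.000303) in KO and -1.16 ± 0.14 (adjusted p = 0.000123) in OE.

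Both fibrillins, whose polymers are the microfibrils on which latent TGF-beta is held, fell in OE, and FBN1 rose in KO. FBN1 (ENSG00000166147, chromosome 15, 48408313 to 48645721, minus strand, Length 16027 bases) had 68.3, 99.1 and 101 CPM in the KO libraries, 28.8, 15.2 and 18.2 CPM in the OE libraries and 52.8, 38.4 and 67.6 CPM in the WT libraries. KO was highest and OE lowest with no overlap of the groups (0.76 ± 0.23, adjusted p = 0.0265, for KO, -1.35 ± 0.24, adjusted p = 0.00148, for OE and 2.10 ± 0.24, adjusted p = 7.04e-06, for KO against OE). The KO call was lost without KO replicate 2, KO replicate 3, WT replicate 1 or WT replicate 2 (adjusted p up to 0.111, log2 fold change 0.56 to 0.97 over the 9 fits), and the median of the tested genes around it was 0.32.

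FBN2 (ENSG00000138829, chromosome 5, 128257909 to 128659185, minus strand, Length 13218 bases) had 92.3, 104 and 117 CPM in the KO libraries, 29.0, 17.6 and 25.6 CPM in the OE libraries and 84.9, 52.9 and 98.0 CPM in the WT libraries. Its OE libraries stood apart from the other 6 (-1.70 ± 0.21, adjusted p = 0.000152, against WT and 2.11 ± 0.21, adjusted p = 2.36e-06, for KO against OE), while KO and WT overlapped (0.41, adjusted p = 0.180). LTBP1, the latent TGF-beta binding protein that ties the growth factor to fibrillin and among the most abundant of the 45 genes, averaged 452 ± 36.5 CPM in KO, 301 ± 48.2 CPM in OE and 490.2 ± 84.8 CPM in WT (SD, n = 3 each). It fell in OE (-0.70 ± 0.14, adjusted p = 0.00326) and not detectably in KO (-0.12, 95% interval -0.41 to 0.18).

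Versican was the only interstitial proteoglycan of the list with enough reads to test. VCAN (ENSG00000038427, chromosome 5, 83471618 to 83582303, plus strand, Length 14678 bases), a large chondroitin sulfate proteoglycan that binds hyaluronan, had 27.0, 31.2 and 38.0 CPM in the KO libraries, 37.7, 25.0 and 39.5 CPM in the OE libraries and 137, 84.9 and 181 CPM in the WT libraries. Every KO and OE library lay below every WT library, and KO and OE overlapped. The log2 fold change was -2.06 ± 0.23 (adjusted p = 1.15e-05) in KO and -1.97 ± 0.23 (adjusted p = 0.000104) in OE, so the fitted level was 23.9% of WT in KO and 25.5% in OE. KO and OE did not differ detectably (-0.09, 95% interval -0.59 to 0.40), but with a correction for the trend of counts with Length, described below, VCAN was called lower in KO (-0.58, adjusted p = 0.0109). The small leucine-rich proteoglycans had at most 8 counts for BGN and 14 for DCN in a library.

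Of the matricellular proteins, which act on cells more than as structure, SPARC and TNC were tested. SPARC had 3107, 3033 and 3044 CPM in the KO libraries, 2367, 2367 and 2269 CPM in the OE libraries and 2845, 3246 and 2775 CPM in the WT libraries. Its fall in OE was small against its level (-0.34 ± 0.09, adjusted p = 0.0174) and was lost without OE replicate 3 (adjusted p up to 0.0673, log2 fold change -0.38 to -0.26 over the 9 fits), and KO did not differ detectably from WT (0.05, 95% interval -0.15 to 0.25). TNC (ENSG00000041982, chromosome 9, 115019575 to 115118257, minus strand, Length 9639 bases), which encodes tenascin-C, rose in KO (1.25 ± 0.32, adjusted p = 0.0119), with 8.64, 9.51 and 10.2 CPM in the KO libraries, 3.96, 2.07 and 2.73 CPM in the OE libraries and 5.99, 2.20 and 3.68 CPM in the WT libraries. All KO libraries lay above all others. Around TNC on chromosome 9, the tested genes had a median of -0.35 in KO against WT, of the opposite sign. THBS1, which encodes thrombospondin-1, had at most 8 counts.

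Both metalloproteinases of the list fell in both lines, and more in KO. MMP2 (ENSG00000087245, chromosome 16, 55389700 to 55506691, plus strand, Length 4706 bases), gelatinase A, had 0.117, 1.30 and 1.07 CPM in the KO libraries, 3.30, 2.35 and 3.01 CPM in the OE libraries and 12.1, 6.97 and 11.2 CPM in the WT libraries. The 3 groups did not overlap, with KO lowest and WT highest. In counts, the KO libraries held 1, 12 and 10 reads. The log2 fold change was -3.56 ± 0.44 (adjusted p = 2.65e-05) in KO, -1.79 ± 0.37 (adjusted p = 0.00407) in OE and -1.77 ± 0.48 (adjusted p = 0.00768) for KO against OE.

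MMP14 (ENSG00000157227, chromosome 14, 22836560 to 22849027, plus strand, Length 4458 bases), the membrane-type metalloproteinase that activates pro-MMP2 at the cell surface, had 27.3, 23.4 and 17.6 CPM in the KO libraries, 41.1, 47.2 and 49.5 CPM in the OE libraries and 95.1, 71.2 and 78.0 CPM in the WT libraries. These groups too were separate and in the same order. KO reached 28.0% of WT (-1.84 ± 0.17, adjusted p = 1.55e-06) and OE 56.4% (-0.83 ± 0.17, adjusted p = 0.00318), and KO was lower than OE (-1.01 ± 0.17, adjusted p = 0.000265). At a Length of 4458 bases, MMP14 lies in the middle of 5 equal classes of Length, whose median in OE against WT was 0.01.

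In KO, TIMP1 fell and TIMP2 rose. TIMP1 (ENSG00000102265, chromosome X, 47582408 to 47586789, plus strand, Length 1446 bases), the shortest of the 45 transcripts, had 69.9, 67.2 and 60.7 CPM in the KO libraries, 98.6, 134 and 119 CPM in the OE libraries and 104, 106 and 79.0 CPM in the WT libraries. It was lower in KO than in WT (-0.55 ± 0.15, adjusted p = 0.0147) and than in OE (-0.83 ± 0.15, adjusted p = 0.000381). OE and WT overlapped (0.28, adjusted p = 0.188).

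TIMP2 (ENSG00000035862, chromosome 17, 78852977 to 78925387, minus strand, Length 5633 bases), which also takes part in the activation of pro-MMP2 by MMP14, had 101, 116 and 118 CPM in the KO libraries, 38.5, 37.9 and 43.4 CPM in the OE libraries and 78.2, 51.7 and 94.3 CPM in the WT libraries. KO was highest and OE lowest, with no overlap (0.58 ± 0.17, adjusted p = 0.0260, for KO and -0.90 ± 0.18, adjusted p = 0.00276, for OE, and 1.48 ± 0.18, adjusted p = 1.13e-05, for KO against OE). TIMP3, which binds the matrix and was by far the most abundant of the 3, averaged 1149 ± 40.1 CPM in KO, 1081 ± 41.2 CPM in OE and 966 ± 105 CPM in WT (SD, n = 3 each) and was not called. The KO calls were lost for TIMP1 without KO replicate 2, KO replicate 3 or WT replicate 1 (adjusted p up to 0.0727, log2 fold change -0.67 to -0.48 over the 9 fits) and for TIMP2 without KO replicate 2, KO replicate 3, WT replicate 1 or WT replicate 2 (adjusted p up to 0.0914, log2 fold change 0.37 to 0.78 over the 9 fits).

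SERPINE2 (ENSG00000135919, chromosome 2, 223975045 to 224039318, minus strand, Length 8957 bases), which encodes the serine protease inhibitor protease nexin-1, had 1.64, 3.57 and 3.21 CPM in the KO libraries, 18.5, 19.4 and 16.8 CPM in the OE libraries and 5.43, 4.77 and 6.21 CPM in the WT libraries. The groups were fully separate, in the order OE, WT, KO. It was the 1 matrix gene called higher in OE (1.73 ± 0.24, adjusted p = 0.000309), and was lower in KO than in WT (-0.95 ± 0.28, adjusted p = 0.0220) and than in OE (-2.68 ± 0.26, adjusted p = 1.30e-06). The fall in KO was lost without KO replicate 1, WT replicate 1 or WT replicate 3 (adjusted p up to 0.0874, log2 fold change -1.16 to -0.69 over the 9 fits). At 8957 bases it belongs to the longest of 5 equal classes of Length, whose median in OE was -0.29, so its rise ran against the trend with length. LOX, which cross-links collagen and elastin, averaged 1.16 ± 0.753 CPM in KO, 1.27 ± 0.148 CPM in OE and 1.37 ± 0.220 CPM in WT (SD, n = 3 each), and was called in no comparison.

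**Figure D3:**
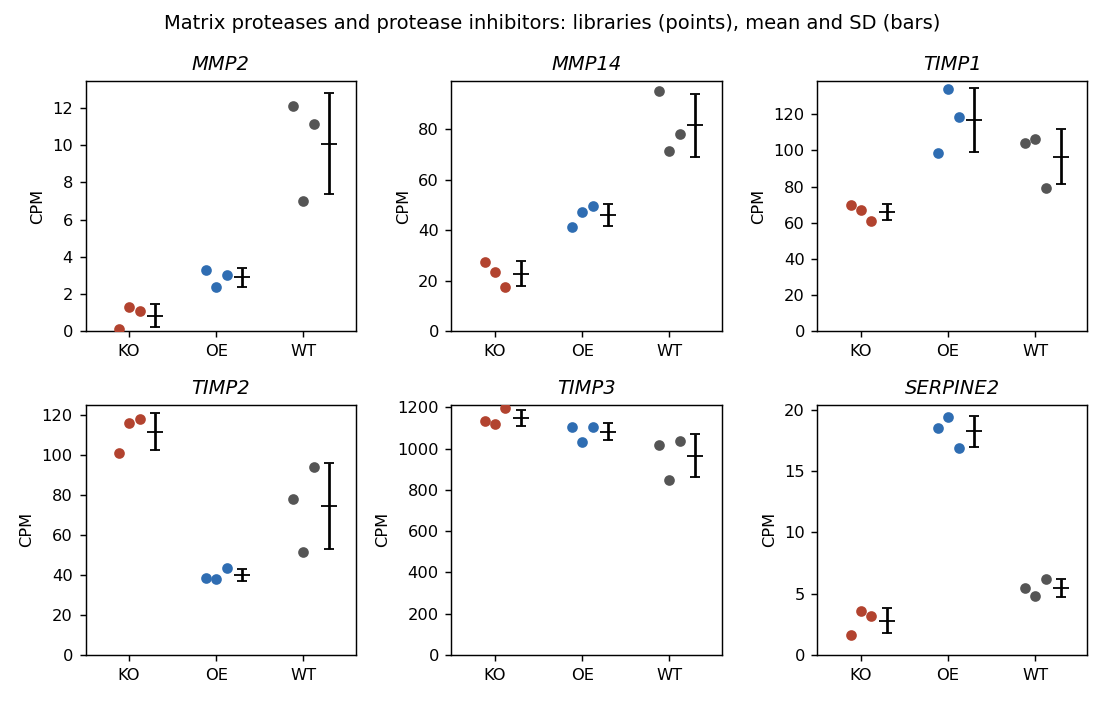
CPM of 2 matrix metalloproteinases and 4 protease inhibitors in each library (points, KO left, then OE, then WT), with the group mean and SD as bars and each vertical axis starting at 0. MMP2 and MMP14 are lowest in KO, TIMP2 is lowest and SERPINE2 highest in OE.

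Matrix genes are long, and long transcripts were lower in the OE libraries as a whole. The 35 tested genes had a median Length of 8446 bases, from 1446 for TIMP1 to 19465 for COL6A3, against a median of 5020 over all tested genes, and 18 of the 35 fell in the longest of 5 equal classes. From the shortest to the longest class, the median log2 fold change in OE against WT was 0.24, 0.11, 0.01, -0.12 and -0.29. Set against the median of their own class, 28 of the 35 matrix genes were lower in OE, and the median difference from it was -0.79. In KO against WT the class medians ran the other way and less steeply, from -0.10 to 0.09.

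When each library was corrected for its trend of counts with Length, 3 matrix genes were higher and 24 lower in OE against WT, against 10.3% and 9.55% of all genes (19.8% in either direction), and their median was -0.66. COL4A1 lost its call (-0.38), while LAMA4 (1.70) and NID1 (0.56) were called higher. After the correction the log2 fold change was -2.64 for FN1, -2.60 for COL5A2, -1.91 for HSPG2, -1.80 for MMP2, -1.58 for VCAN and 1.96 for SERPINE2. In KO against OE the correction left 12 genes higher and 6 lower, and COL4A1, COL4A2, LAMA3, LAMA5, LAMB2 and AGRN lost their calls, while VCAN gained one. Of all genes, 18.4% and 19.4% were called there (37.8% in either direction). In KO against WT, 5 matrix genes were higher and 12 lower after the correction, against 10.9% and 11.2% of all genes, and the 14 earlier calls were kept. The calls gained were COL18A1 (-0.52, adjusted p = 0.0414), LAMC1 (0.42) and AGRN (-0.77, adjusted p = 0.0400), 3 of the 15 genes called in OE alone without it. Over the 35 genes, Spearman's rho between Length and the log2 fold change was -0.32 in OE against WT, 0.17 in KO against WT and 0.46 in KO against OE, as a description across genes of the same libraries.

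**Figure D4:**
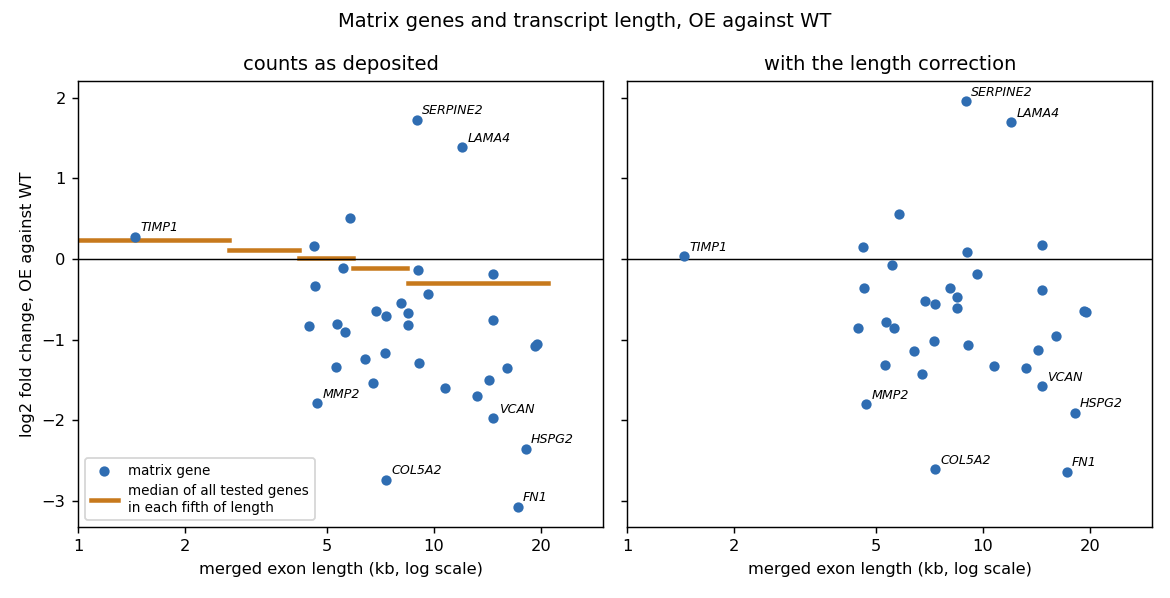
Log2 fold change in OE against WT of each matrix gene by its merged exon length (log scale), from the counts as deposited (left, with the median of all tested genes in each of 5 classes of length as bars) and with the length correction (right). Most points lie below the bars (28 of 35), and FN1, COL5A2 and HSPG2 remain the 3 lowest after the correction.

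Within WT and OE, 1 library of each stood low for these genes. WT replicate 2 was the lowest WT library for 29 of the 35 genes and OE replicate 2 the lowest OE library for 24. In KO, replicate 1 was the lowest for 18. How often each library was the lowest over all tested genes was not taken, so these counts are not shown to be particular to matrix genes. The 35 genes summed to 6862, 6996 and 7117 CPM in KO, 5359, 4894 and 5160 CPM in OE and 7125, 6326 and 7205 CPM in WT, so the OE sums lay below all others. Of these sums, SPARC alone held 3033 to 3107 CPM in KO, 2269 to 2367 CPM in OE and 2775 to 3246 CPM in WT. TIMP3 held 1121 to 1195 CPM in KO, 1033 to 1105 CPM in OE and 846 to 1035 CPM in WT. The sums thus do not describe the 35 genes alike. With both WT replicate 2 and OE replicate 2 left out, an alternative chosen after the data were seen, 2 genes were higher and 25 lower in OE against WT, and 3 higher and 14 lower in KO against WT. Over all genes, the same fit called 1533 higher and 1702 lower in OE against WT, and 1462 and 1582 in KO against WT. The trend of counts with Length in each library, as a slope against the mean of all libraries, was 0.04, 0.09 and 0.13 in KO, -0.08, -0.20 and -0.08 in OE and 0.06, -0.05 and 0.10 in WT. WT replicate 2, OE replicate 2 and KO replicate 1 thus had the lowest slopes of their groups.

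Some of the KO values lay close to those of the genes around them on the chromosome. The part that position plays in the calls was not tested. The largest medians of 51 neighbouring tested genes in KO against WT were 0.63 around LAMC1, -0.47 around the chromosome 21 collagens, -0.39 around SPARC, -0.35 around TNC and 0.32 around FBN1. For MMP2, MMP14, VCAN and FN1, the neighbouring genes had medians of 0.01, -0.06, 0.10 and 0.12. Without the genes whose neighbours were shifted by more than 0.4, 4 matrix genes were higher and 9 lower in KO.

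**Figure D5:**
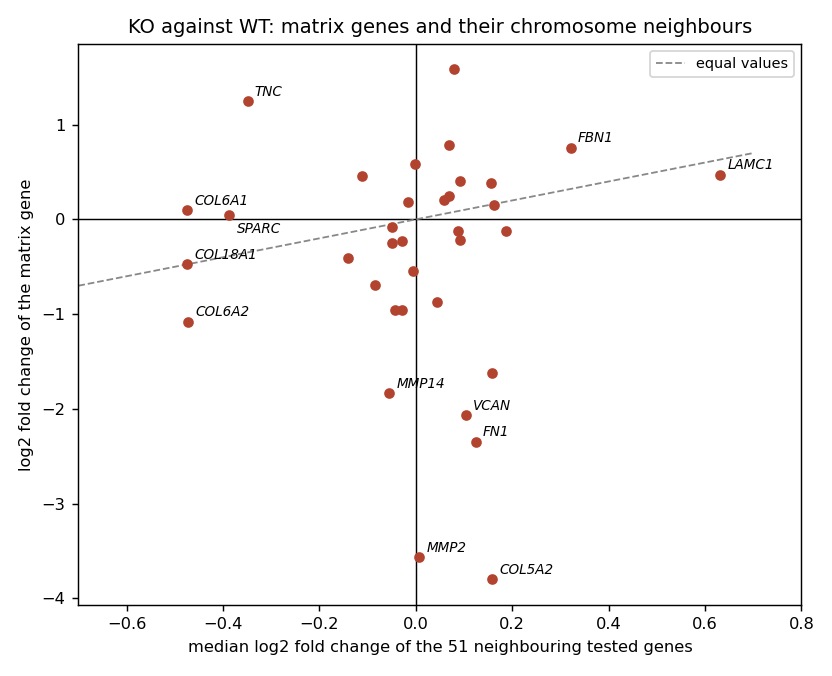
Log2 fold change of each matrix gene in KO against WT (vertical) by the median of the 51 neighbouring tested genes (horizontal), with a dashed line where both are equal. COL18A1 and LAMC1 lie near the line, and COL5A2, MMP2, FN1, VCAN and MMP14 lie far below it with neighbours between -0.06 and 0.16.

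The counts of the further lists below are to be read against all tested genes, of which 9.16% were higher and 9.6% lower in KO, and 9.65% higher and 11% lower in OE, against WT.

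Among genes that process collagen, LOXL3 and PCOLCE rose in KO. Of 29 such genes, 24 were tested, and 5 were higher and 3 lower in KO, against 1 higher and 4 lower in OE (both against WT), with medians of -0.00 and -0.11. The shares were 20.8% higher and 12.5% lower in KO and 4.17% and 16.7% in OE, and these rest on 1 to 5 genes each. LOXL3, a lysyl oxidase-like cross-linking enzyme, had 34.5, 40.7 and 28.4 CPM in the KO libraries, 1.65, 1.38 and 1.79 CPM in the OE libraries and 1.70, 1.83 and 1.84 CPM in the WT libraries. The KO libraries held many times the level of the other 6 (4.26 ± 0.23, adjusted p = 2.54e-09), and OE did not differ detectably from WT (adjusted p = 0.791). PCOLCE, the enhancer of procollagen C-proteinase, rose in KO as well (3.08 ± 0.27, adjusted p = 8.57e-07), with 58.6, 55.1 and 42.5 CPM in the KO libraries, 8.25, 6.50 and 5.83 CPM in the OE libraries and 9.27, 5.99 and 3.11 CPM in the WT libraries. P3H2, a prolyl 3-hydroxylase, rose by less (0.83 ± 0.10, adjusted p = 3.24e-05). In OE, the called genes with the smallest adjusted p were the prolyl isomerase PPIB (0.59, adjusted p = 0.00408), which was higher, and MIA3 (-0.80, adjusted p = 0.00686), needed for collagen export, and the lysyl hydroxylase PLOD1 (-0.51, adjusted p = 0.00697), which were lower. With the length correction they were 0.35 for PPIB, -0.54 for MIA3 and -0.48 for PLOD1 (adjusted p = 0.0141, 0.0160 and 0.00428). PPIB, at 1723 bases, lies in the shortest class of Length and MIA3, at 10155 bases, in the longest.

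Of 59 other matrix proteins, 24 were tested. In KO 2 were higher and 4 lower, and in OE 2 were higher and 11 lower, with medians of -0.18 and -0.89. That is 8.33% higher and 16.7% lower in KO, the first near the share of all genes, and 8.33% higher and 45.8% lower in OE. With the length correction, 3 were higher and 10 lower in OE, with a median of -0.73. CILP2, which encodes a cartilage matrix protein, had 72.2, 71.1 and 57.2 CPM in the KO libraries, 0.440, 0.277 and 0.188 CPM in the OE libraries and 0.452, 0 and 0.460 CPM in the WT libraries. It was called higher in KO (7.68, adjusted p = 1.58e-10), with all KO libraries far above the others. With at most 0.460 CPM in any OE or WT library, CILP2 passed the low-count filter through the KO libraries alone. Its place among the genes higher in KO follows in part from that filter, and its fold change rests on few or no reads in WT. The microfibril protein MFAP2 was also higher in KO (1.69, adjusted p = 0.00140), and ECM2 was lower (-2.52, adjusted p = 3.50e-05). In OE, besides LAMA2, the laminin γ chain LAMC3 (-1.41 ± 0.18, adjusted p = 0.000170) and NPNT, which encodes the integrin ligand nephronectin (-1.03 ± 0.15, adjusted p = 0.000416), were lower.

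Of 35 genes for glycosaminoglycan synthesis and cell-surface proteoglycans, 29 were tested. Of these, 8 were higher and 3 lower in KO, and 3 higher and 4 lower in OE, with medians of -0.01 and -0.04. The shares were 27.6% higher and 10.3% lower in KO, and 10.3% higher and 13.8% lower in OE, where both lie near those of all genes. In KO, the heparan sulfate proteoglycan SDC4 (0.83, adjusted p = 0.000539) and the chondroitin synthase CHSY1 (0.88, adjusted p = 0.00118) were higher and SDC2 (-2.27, adjusted p = 0.00132) was lower. In OE, the linker-region enzyme B3GALT6 (0.65, adjusted p = 0.00816) was higher, and the glypican GPC1 (-0.64, adjusted p = 0.00842) and the sulfotransferase CHST3 (-0.93, adjusted p = 0.00897) were lower.

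Of 32 other matrix proteases and inhibitors, 15 were tested, with 3 higher (20%) and 1 lower (6.67%) in KO and 2 lower (13.3%) in OE, the last near the share of all genes. The sheddases ADAM9 (1.00 ± 0.17, adjusted p = 0.000457) and ADAM10 (0.84 ± 0.14, adjusted p = 0.000531) were higher in KO, and ADAM15 was lower (-0.51, adjusted p = 0.00993). In OE the proteoglycan-cutting ADAMTS9 (-1.29, adjusted p = 0.0226) and RECK, a membrane-bound inhibitor of metalloproteinases (-0.46, adjusted p = 0.0384), were lower. All 13 TGF-beta signalling genes were tested, with 2 higher (15.4%) and 1 lower (7.69%) in KO, counts too small to set apart from the shares of all genes, and 4 lower (30.8%) in OE. With the length correction, 2 were higher and 3 lower in OE. The ligand TGFB2 was lower in both, with 6.54, 6.59 and 5.03 CPM in the KO libraries, 11.5, 9.82 and 13.1 CPM in the OE libraries and 20.4, 16.3 and 18.9 CPM in the WT libraries (-1.61 ± 0.20, adjusted p = 2.99e-05, in KO and -0.68 ± 0.19, adjusted p = 0.0195, in OE). In KO the co-repressor SKIL (0.53, adjusted p = 0.0379) and the co-receptor TGFBR3 (0.50, adjusted p = 0.0445) were higher, and in OE SKI (-0.99, adjusted p = 0.00205) and TGFB1 (-0.48, adjusted p = 0.0203) were lower. In OE against WT, the length correction kept the direction and the call of each gene named above from the lists of proteases, glycosaminoglycan genes, other matrix proteins and TGF-beta signalling.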

How the data were processed

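RNA-seq was run on poly-A RNA from 9 cultures of H295R cells (KO, OE and WT, 3 biological replicates each, per the series' design text). The authors deposited raw read counts per gene for each library, made with featureCounts 1.5.2 on Ensembl release 101 (GRCh38), per the file headers. The header commands set no paired-end and no strand option, so reads on both strands were counted. The submitters' processing notes also name FastQC, HISAT2 1.03, Subread, featureCounts 0.1.0 and DESeq2. Even values made up 63.6 to 68.5% of counts from 1 to 20 and 49 to 50.9% of counts above 500; the reason was not tested.

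Counts were fitted in edgeR 4.0.16 (R 4.3.3) with TMM scaling, filterByExpr at a minimum count of 10 and the quasi-likelihood F test on all 9 libraries (6 residual degrees of freedom, common biological coefficient of variation 0.15). Adjusted p-values are Benjamini-Hochberg values over 14150 tested genes of the 27826 with a count, and every adjusted p in the text comes from this test unless another is named. The error of a log2 fold change is its SE, with a median of 0.187 over genes in KO against WT. CPM are TMM-scaled. The length correction took out each library's smooth trend of log2 counts (prior count 2) on the deposited Length column by a lowess fit with a span of 0.3. The fit was tested on simulated data.

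The alternatives were other scalings, no low-count filter, DESeq2 1.42.0, limma-voom (limma 3.58.1), only the groups compared, a replicate block, the length correction, and each library left out in turn. All 45 symbols matched 1 Ensembl identifier each. Per-library values are given for called genes with at least 5 CPM in the highest group mean and a log2 fold change of at least 1 in size, and for others where a paragraph turns on them. Of each further list, up to 3 genes per comparison with the smallest adjusted p are named. The 45 genes and all lists were chosen with earlier results of these data known, so no list is tested. LAMA2 is named with the laminins because its list holds it. Figures were drawn with matplotlib 3.10.9.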

Additional observations from a re-analysis of the deposited data

How the results depend on the processing

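Counts of called matrix genes were within 1.5 times under most alternatives. The number higher in KO against WT, 4, became 2 with library totals alone, 8 with no low-count filter and 7 with the replicate block, with or without the length correction. The number higher in OE against WT, 1, became 2 with DESeq2 size factors, upper-quartile scaling, no filter, DESeq2 or the replicate block, 3 with the length correction, with or without the block, and 2 with both WT replicate 2 and OE replicate 2 left out. Over all genes, the number higher in KO against WT, 1296, became 1025 with library totals alone and 1526 with no filter. It was 1622 with the block and 1797 with the block and the length correction. In OE against WT, library totals alone gave 765 higher in place of 1365. The number there was 1387 with DESeq2 size factors, 1418 with upper-quartile scaling, 1531 with no filter and 1578 with DESeq2. It was 1820 with the block, 1455 with the length correction and 1816 with both. When each library was left out in turn, matrix genes higher and lower numbered 1 to 5 and 8 to 12 in KO against WT, 1 to 2 and 19 to 25 in OE against WT, and 14 to 18 and 4 to 5 in KO against OE. All genes higher and lower then numbered 879 to 1570 and 885 to 1644 in KO against WT, 485 to 1798 and 759 to 1875 in OE against WT, and 2307 to 2982 and 2063 to 2921 in KO against OE. For all genes, the lowest values came without KO replicate 2 in KO against WT and without WT replicate 3 in OE against WT. The fewest matrix genes lower, 8 in KO against WT and 19 in OE against WT, came without WT replicate 1. Every call was kept in all 9 of these fits for 9 of 14 matrix genes in KO against WT, 19 of 26 in OE against WT and 17 of 23 in KO against OE.

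In KO against OE, the calls lost without 1 library and not given above were COL4A1 without KO replicate 2, KO replicate 3 or OE replicate 2 (adjusted p up to 0.0957, log2 fold change 0.43 to 0.87 over the 9 fits), LAMA5 without KO replicate 2 (adjusted p up to 0.0520, log2 fold change 0.92 to 1.30 over the 9 fits), LAMB2 without KO replicate 1, KO replicate 2 or OE replicate 3 (adjusted p up to 0.0879, log2 fold change 0.32 to 0.52 over the 9 fits) and AGRN without KO replicate 1, OE replicate 2 or OE replicate 3 (adjusted p up to 0.116, log2 fold change 0.62 to 1.07 over the 9 fits). Outside these fits, SERPINE2 in KO against WT, SPARC in OE against WT and LAMA3 in KO against OE lost their calls when only the groups compared were fitted, NID2 in OE against WT under limma-voom, and LAMA3 in KO against OE with upper-quartile scaling. With both WT replicate 2 and OE replicate 2 left out, LAMA4 in KO against WT and LAMA3 and AGRN in KO against OE lost theirs. LAMA4 was called in OE against WT with DESeq2 size factors, upper-quartile scaling, DESeq2 and the length correction, and without WT replicate 1. NID1 was called higher in OE against WT with no low-count filter, with the replicate block and with the length correction. It was also called without OE replicate 2, and with both WT replicate 2 and OE replicate 2 left out. With both left out, COL18A1 was called in KO against OE. Calls gained in KO against WT, besides those with the length correction, were COL11A1, COL18A1, LAMC1, HSPG2 and FBN2 with no low-count filter, COL11A1, LAMC1, AGRN and FBN2 with the block, COL11A1, COL4A2, COL18A1, LAMC1, AGRN and TIMP3 with the block and the length correction, LAMC1 with only the groups compared and without OE replicate 2 or WT replicate 3, AGRN without KO replicate 1, COL4A2 and COL18A1 without WT replicate 2, and COL4A2, COL18A1, AGRN and LTBP1 with both libraries left out. Log2 fold changes of the other sign occurred in 14 of 105 gene comparisons, all of them uncalled in the report. SPARC in KO against WT was -0.004 with upper-quartile scaling and -0.002 with library totals. With the length correction, without and with the block, COL1A1 in OE against WT was 0.088 and 0.091, LAMA3 in OE against WT 0.17 and 0.142, COL6A3 in KO against OE -0.417 and -0.404, and LAMA4 in KO against OE -0.214 and -0.196. With both libraries left out, COL6A1 was -0.147, LAMB1 -0.003 and NID2 -0.125 in KO against WT, LAMA3 was 0.075 in OE against WT and COL6A3 -0.014 in KO against OE. Over the fits without 1 library, KO against WT ran from -0.308 to 0.171 for COL4A1, -0.147 to 0.393 for COL6A1, -0.003 to 0.244 for LAMB1, -0.126 to 0.662 for NID2 and -0.887 to 0.037 for LOX. OE against WT ran from -0.283 to 0.003 for COL1A1, -0.511 to 0.195 for LAMA3 and -0.217 to 0.022 for LOX. KO against OE ran from -0.299 to 0.209 for COL3A1, -0.363 to 0.597 for COL6A3, -0.289 to 0.026 for VCAN and -0.78 to 0.144 for LOX. The cause of these changes was not tested.

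The labels do not state whether libraries with equal replicate numbers share a culture or day. With 3 libraries in each group, the correlations given here cannot decide it. Deviations of same-numbered libraries from their group means correlated at -0.138 to 0.246, and not every library correlated best with its own number. With the number as a block, all genes higher and lower were 1622 and 1613 in KO against WT, 1820 and 1937 in OE against WT and 3206 and 2929 in KO against OE, and matrix genes were 7 and 11, 2 and 25, and 18 and 5. At the depth of these libraries, genes under about 1 CPM rest on 10 or fewer reads each.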
